A study of Mus musculus with 6 samples.

Results

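The genes described here are 9 genes listed under T cell receptor signalling (Lat, Thy1, Prkcq, Cd3e, Cd3g, Cd8a, Zap70, Lcp2 and Themis2), read in mouse bone marrow stem and progenitor cells. They are 9 of 19938 genes that the arrays measured with a symbol of their own. Each was found by its symbol in the platform annotation. Where a gene has several probe sets, the one kept was selected on its mean over the 6 arrays; each of the 9 genes had 1 probe set, so no measured value decided which probe set was used. The list itself was drawn up with earlier results of these arrays in view, so the tests below are no independent support for it.

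All marrow came from C57BL/6 donors that had been given fluorouracil, and went into recipients of that strain after infection with a retrovirus. The vector group received virus with GFP alone. The BCR-ABL group received BCR-ABL with GFP, and the BCR-ABL-Blk group received BCR-ABL, Blk and GFP together. BCR-ABL, the product of the Philadelphia chromosome, is a tyrosine kinase that is always on and drives chronic myeloid leukemia. Blk belongs to the Src family and is best known from B cells. All animals were wild type and 8 weeks old per the labels. At 14 days after transplantation, GFP-positive marrow cells without lineage markers and with c-Kit and Sca-1 were sorted, a gate called LSK. It holds stem cells and early progenitors, which the labels call HSCs in the vector group and LSCs in the other groups. Each group has 2 biological replicates with 1 array each. The labels do not give the number of mice behind a replicate or the promoter that drives the transgenes.

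In a T cell, the receptor binds its peptide ligand and passes the signal through the CD3 chains. The kinase ZAP-70 docks on phosphorylated CD3 and zeta chains and phosphorylates the membrane adaptor LAT and the cytosolic adaptor SLP-76, the product of Lcp2. LAT and SLP-76 then gather phospholipase C-gamma, whose product diacylglycerol recruits protein kinase C-theta, the product of Prkcq, on the way to NF-kB. Several of these proteins also work outside T cells. LAT and SLP-76 serve Fc receptors of mast cells and the collagen receptor of platelets, Thy1 is a surface marker of mouse stem cells as well as of T cells, and Themis2 is expressed in B cells and macrophages.

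The promoters of Prkcq and Lat, which read higher with BCR-ABL, and of Themis2, which read lower, are shown because these members had the smallest p of the 9 in both comparisons with vector. RefSeq windows (build GRCm38.p6) were matched by gene ID for 8 of the 9 genes, all but Thy1. Each sequence holds the 250 bases before a transcript start, 5′ to 3′ on the strand of the gene. Capitals mark matches, on either strand, to short core motifs of 4 factor families: the STAT core is TTCNNNGAA, the RUNX core TGTGGT, the GATA factor core AGATAA and the ETS core GGAAG. The window of Prkcq is chr2:11172132-11172381 on the plus strand, that of Lat chr7:126369569-126369818 on the minus strand, and that of Themis2 chr4:132796365-132796614 on the minus strand. The windows of Prkcq and Lat belong to a start inside the annotated span of the gene.
Prkcq: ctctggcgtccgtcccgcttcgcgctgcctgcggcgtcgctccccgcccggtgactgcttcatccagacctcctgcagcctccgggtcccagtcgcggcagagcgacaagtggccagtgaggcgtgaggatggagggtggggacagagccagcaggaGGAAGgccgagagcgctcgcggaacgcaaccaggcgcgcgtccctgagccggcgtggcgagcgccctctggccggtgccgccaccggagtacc
Lat: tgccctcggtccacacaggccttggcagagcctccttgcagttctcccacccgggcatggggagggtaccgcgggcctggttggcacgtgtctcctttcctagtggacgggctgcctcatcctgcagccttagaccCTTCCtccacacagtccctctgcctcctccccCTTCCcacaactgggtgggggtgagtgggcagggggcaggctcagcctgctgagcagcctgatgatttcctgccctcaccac
Themis2: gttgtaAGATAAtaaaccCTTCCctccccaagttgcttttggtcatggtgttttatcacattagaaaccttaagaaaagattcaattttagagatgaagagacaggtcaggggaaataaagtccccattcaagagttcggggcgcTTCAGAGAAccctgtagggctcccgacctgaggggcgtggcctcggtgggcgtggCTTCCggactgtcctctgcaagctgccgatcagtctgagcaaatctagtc

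Lat held 2 ETS core matches and Prkcq held 1, with no match to the other 3 motifs. Themis2 held 1 STAT match, 1 GATA match and 2 ETS matches. Of 32851 promoter windows of this length, 64.1% held the ETS core, 7.02% the STAT motif, 9.99% the GATA motif and 14.0% the RUNX motif. These matches describe letters in the window only.

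Among the 9 genes, Prkcq was the one that passed over all genes tested, and it rose in both groups with BCR-ABL. Lat and Thy1 also read higher there and Themis2 lower, by more than 1 log2 unit on average in both groups, but at adjusted p values above 0.05. Cd3e, Cd3g and Zap70, genes more restricted to T cells, differed from vector by 0.21 log2 or less, and Cd8a by at most 0.39. All values are log2 signals after quantile normalization. Tests come from a single limma fit over the 6 arrays, with Benjamini-Hochberg adjustment over 19938 genes and a threshold of 0.05. A value is comparable between arrays for one gene, not between genes.

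Between BCR-ABL and vector, 1 of the 9 genes was called (0.145% of all genes were). For 7 of the 9 the 2 groups did not overlap (5 higher and 2 lower with BCR-ABL), which was so for 37.0% of all genes. Between BCR-ABL-Blk and vector, 1 of 9 was called (0.14% of all genes), and 6 of 9 did not overlap (37.2% of all genes). In each comparison with vector 5 of the 9 had an unadjusted p under 0.05, against 8.64% and 9.42% of all genes. The list was drawn up with earlier results in view. Between BCR-ABL-Blk and BCR-ABL, limma called 0 of 9 genes and 0% of all genes. At an unadjusted p under 0.05 there were 0 of the 9 and 790 of all genes, and 5 of 9 did not overlap (34.0% of all genes). Both comparisons with vector use the same vector arrays and are not independent of each other. The median difference of the 9 genes was 0.20 in BCR-ABL against vector, 0.05 in BCR-ABL-Blk against vector and −0.07 in BCR-ABL-Blk against BCR-ABL; over all genes the medians were 0.02, 0.00 and −0.01.

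**Figure D1:**
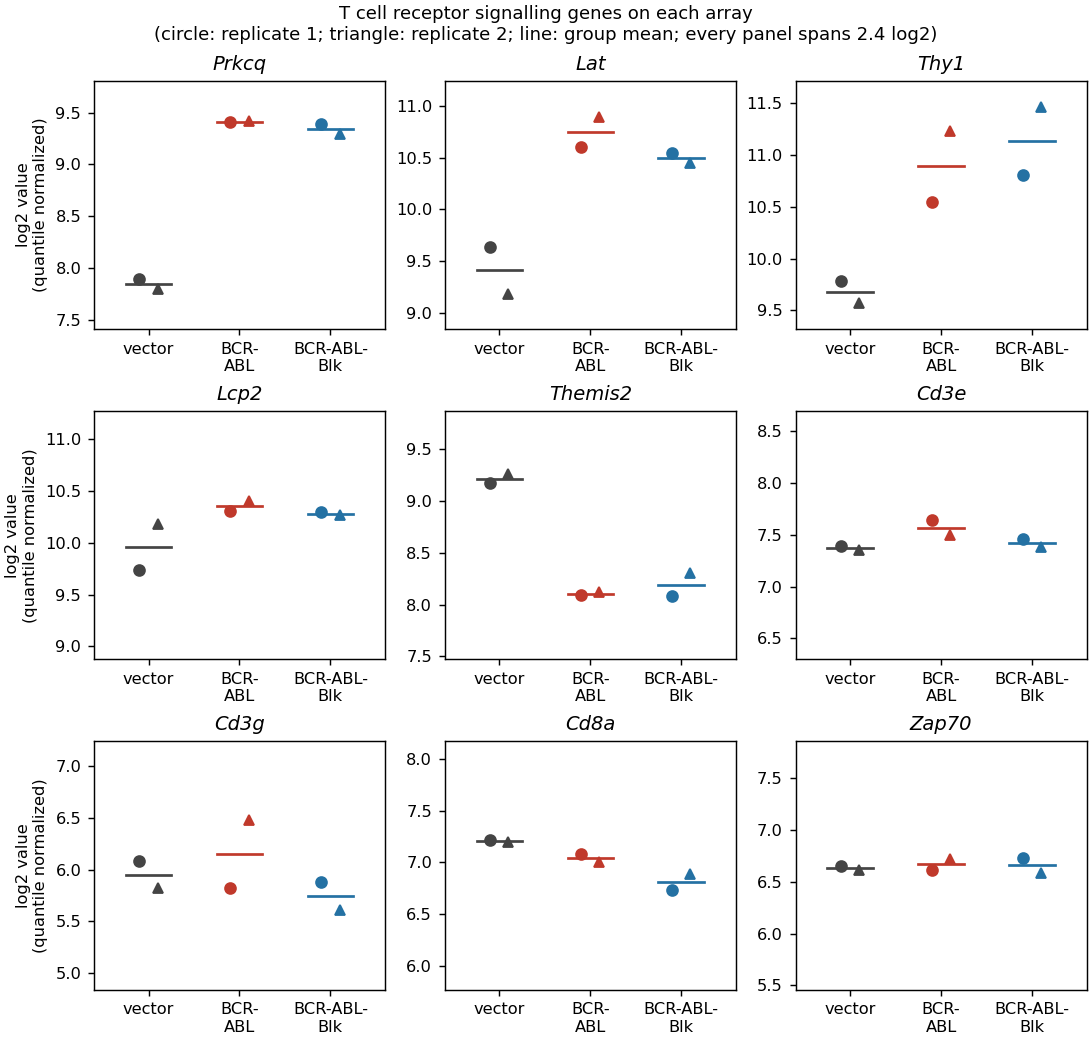
Log2 value (quantile normalized, y axis) of each of the 9 genes on every array, by group on the x axis; circles are replicate 1, triangles replicate 2 and lines the group means, and every panel spans the same height. Prkcq, Lat and Thy1 sit higher and Themis2 lower on the 4 arrays with BCR-ABL than on both vector arrays.

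Prkcq encodes protein kinase C-theta, a diacylglycerol-dependent kinase that acts downstream of the receptor. Its probe set 10469255 read 7.89 and 7.79 with vector, 9.41 and 9.42 with BCR-ABL, and 9.39 and 9.29 with BCR-ABL-Blk. The 4 arrays with BCR-ABL lay within a narrow band far above both vector arrays, and the replicates of each group lay close together. The gene rose 2.97-fold in BCR-ABL (log2 difference 1.57, SE 0.13, adjusted p = 0.016) and 2.82-fold in BCR-ABL-Blk (1.49, SE 0.13, adjusted p = 0.0271). By unadjusted p it stood at rank 6 of all genes in BCR-ABL against vector and rank 5 in BCR-ABL-Blk against vector.

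The size of the Prkcq difference varied little with the processing, while its call depended on which arrays were used. Over 15 alternatives the difference ran from 1.47 to 1.61 in BCR-ABL and from 1.45 to 1.64 in BCR-ABL-Blk, with adjusted p values from 4.6e-08 to 0.204 and from 3.1e-10 to 0.119. The lowest p of each range came with the deposited values, whose fit had no limit on its prior degrees of freedom. Without BCR-ABL replicate 1 it was 1.58 (adjusted p = 0.149) and without BCR-ABL replicate 2 it was 1.54 (adjusted p = 0.204). In BCR-ABL-Blk against vector the call was lost without BCR-ABL-Blk replicate 1 (1.45, adjusted p = 0.119) or replicate 2 (1.54, adjusted p = 0.0764). There it was lost too without BCR-ABL replicate 1 (1.502) or replicate 2 (1.47). These arrays enter that comparison only through the shared spread and the normalization, which was run again without them. With only the 4 arrays of these groups, the adjusted p was 0.0927. Added Blk left Prkcq at a difference of −0.07 from BCR-ABL alone, with a 95% interval from −0.39 to 0.24.

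Lat encodes the membrane adaptor on which the signalling complex of the receptor is built. It read 9.63 and 9.19 with vector, 10.61 and 10.89 with BCR-ABL, and 10.55 and 10.45 with BCR-ABL-Blk. All 4 arrays with BCR-ABL lay above both vector arrays, and the vector replicates differed from each other by 0.44. The difference from vector was 1.34 in BCR-ABL (2.53-fold, SE 0.17, adjusted p = 0.0504) and 1.09 in BCR-ABL-Blk (2.13-fold, SE 0.17, adjusted p = 0.0714). Neither passed. With all 6 arrays, the difference in BCR-ABL did pass with array weights (adjusted p = 0.0498), with probe sets averaged (0.0495), with the filter on low values (0.0305) and with the deposited values (7.4e-12). The difference in BCR-ABL-Blk passed with the filter (adjusted p = 0.047) and with the deposited values (6.0e-11). Without vector replicate 1 the 2 differences were 1.56 and 1.31, and without vector replicate 2 they were 1.13 and 0.88. Each of these fits leaves 1 vector array. Over the alternatives the adjusted p ran from 7.4e-12 to 0.395 in BCR-ABL and from 6.0e-11 to 0.272 in BCR-ABL-Blk, while the difference stayed above 0.87 in every one. Both BCR-ABL-Blk arrays lay below both BCR-ABL arrays, by 0.25 on average (difference −0.25, 95% interval −0.66 to 0.16, adjusted p = 0.999).

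Lcp2 encodes SLP-76, the partner adaptor of LAT, which many blood lineages express. It read 9.74 and 10.18 with vector, 10.31 and 10.41 with BCR-ABL, and 10.295 and 10.27 with BCR-ABL-Blk. The groups did not overlap, but vector replicate 2 lay close to the arrays with BCR-ABL. The difference was 0.39 in BCR-ABL (SE 0.16, adjusted p = 0.551) and 0.32 in BCR-ABL-Blk (SE 0.16, adjusted p = 0.601). Over the alternatives these ran from 0.17 to 0.62 and from 0.10 to 0.55.

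Themis2 encodes a relative of the T cell protein THEMIS that acts in B cells and macrophages. Like Cd8a, which is described further on, it read lower with BCR-ABL: 9.17 and 9.26 with vector, 8.10 and 8.12 with BCR-ABL, and 8.08 and 8.31 with BCR-ABL-Blk. No array with BCR-ABL reached either vector array. The difference was −1.11 in BCR-ABL (SE 0.14, adjusted p = 0.0502) and −1.02 in BCR-ABL-Blk (SE 0.14, adjusted p = 0.0568), so neither passed. Without vector replicate 1 the 2 differences were −1.15 and −1.06, and without vector replicate 2 they were −1.08 and −0.99. Each of these fits leaves 1 vector array. Over the 15 alternatives the differences lay between −1.22 and −1.07 and between −1.13 and −0.84. The adjusted p ran from 8.3e-05 to 0.370 in BCR-ABL and from 0.0201 to 0.208 in BCR-ABL-Blk. Between the groups with and without Blk, Themis2 differed by 0.09 (95% interval −0.25 to 0.42). Themis, the T cell gene of that family, differed from vector by −0.08 for BCR-ABL and 0.08 for BCR-ABL-Blk.

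Thy1 encodes a small glycoprotein anchored in the outer membrane, which on mouse blood cells marks T cells and, at low level, stem cells. It read 9.78 and 9.57 with vector, 10.55 and 11.23 with BCR-ABL, and 10.81 and 11.46 with BCR-ABL-Blk. Every array with BCR-ABL was above both vector arrays, and in both groups replicate 2 was over 0.6 above replicate 1. The gap between replicates was 0.69 for BCR-ABL and 0.65 for BCR-ABL-Blk, where the median gene differed by 0.12 in each. The difference from vector was 1.21 in BCR-ABL (SE 0.27, adjusted p = 0.192) and 1.46 in BCR-ABL-Blk (SE 0.27, adjusted p = 0.108). Without vector replicate 1, which leaves 1 vector array, the difference in BCR-ABL-Blk was 1.56. With the deposited values as they stand it passed in both comparisons (differences 1.19 and 1.61). Over the alternatives the adjusted p ran from 4.5e-12 to 0.796 in BCR-ABL and from 1.7e-22 to 0.392 in BCR-ABL-Blk. The difference between the groups with and without Blk was 0.25 (95% interval −0.38 to 0.87), and the arrays overlapped.

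**Figure D2:**
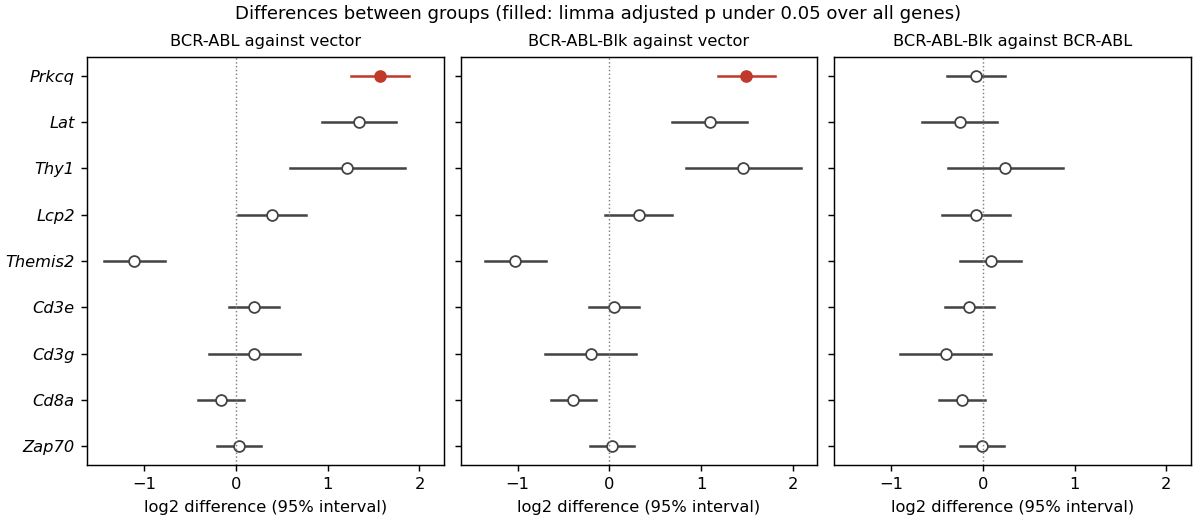
Log2 difference (x axis, with 95% interval from the limma fit) of each gene (y axis) in the 3 comparisons; a filled red point passed at an adjusted p under 0.05 over all genes. Prkcq is filled in both comparisons with vector, at 1.57 and 1.49, and no gene is filled between BCR-ABL-Blk and BCR-ABL.

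Neither CD3 chain among the members passed in any comparison. Cd3e, a signalling chain of the receptor complex, read 7.39 and 7.35 with vector, 7.64 and 7.495 with BCR-ABL, and 7.46 and 7.38 with BCR-ABL-Blk. Its difference was 0.20 in BCR-ABL (95% interval −0.07 to 0.46, adjusted p = 0.700) and 0.05 in BCR-ABL-Blk (−0.22 to 0.33, adjusted p = 0.951). Cd3g, which pairs with the epsilon chain and lies next to Cd3d and Cd3e on chromosome 9, read 6.08 and 5.82, 5.82 and 6.48, and 5.88 and 5.61 in the same order. Its groups overlapped in all 3 comparisons, and BCR-ABL replicate 2 was the array that stood out. The differences of Cd3g were 0.20 in BCR-ABL (95% interval −0.30 to 0.70), −0.21 in BCR-ABL-Blk (−0.70 to 0.29) and −0.41 between these groups (−0.91 to 0.09). Without BCR-ABL replicate 2 the first was −0.13.

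Zap70 encodes the kinase that binds phosphorylated CD3 chains. It read 6.66 and 6.62 with vector, 6.62 and 6.72 with BCR-ABL, and 6.73 and 6.59 with BCR-ABL-Blk. The groups overlapped throughout, and the differences from vector were 0.03 (95% interval −0.20 to 0.27) and 0.02 (−0.21 to 0.26). Its sign turned with the scaling and with single arrays left out, so no direction is given. A difference in reading as large as that of Prkcq lies outside these intervals. Signal over background was not measured, so the same cannot be said of the RNA.

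Cd8a encodes a chain of the CD8 coreceptor, which some dendritic cells also carry. It read 7.21 and 7.19 with vector, 7.08 and 7.005 with BCR-ABL, and 6.73 and 6.89 with BCR-ABL-Blk. The groups lay in that order without overlap, at small distances: −0.16 from vector to BCR-ABL (adjusted p = 0.747), −0.23 from BCR-ABL to BCR-ABL-Blk (adjusted p = 0.999) and −0.39 from vector to BCR-ABL-Blk (95% interval −0.64 to −0.14, adjusted p = 0.279). None passed, and the middle difference was 0.07 with the deposited values. The fit did not tell neighbouring groups in this order apart.

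**Figure D3:**
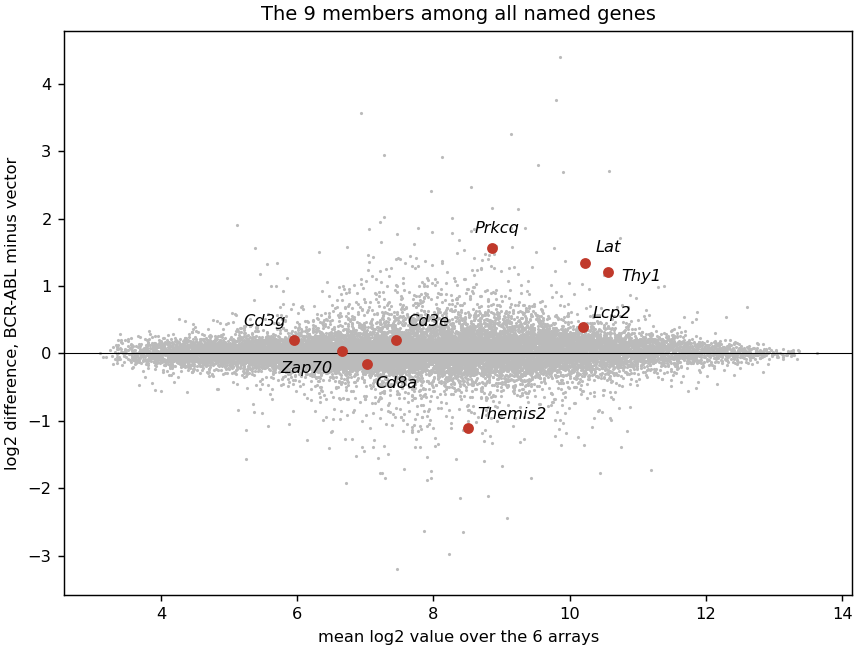
Log2 difference of BCR-ABL minus vector (y axis) against the mean log2 value over the 6 arrays (x axis) for 19938 genes in grey, with the 9 members in red. Prkcq (1.57), Lat (1.34) and Thy1 (1.21) lie in the upper part of the plot and Themis2 (−1.11) in the lower part, while Cd3e, Cd3g, Cd8a and Zap70 lie near 0.

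The label of the list was set against markers of T cells. Of 13 such markers, 10 were measured with a symbol of their own, among them Cd3d, Cd3e, Cd3g, Cd247, Cd4 and Cd8a. Their mean log2 value was 6.61 and 6.62 with vector, 6.49 and 6.59 with BCR-ABL, and 6.48 and 6.50 with BCR-ABL-Blk. Only Bcl11b of the 10 had a mean above the median of all named genes (7.498), a mark of rank that is no background level. The median difference of the list was 0.00 in BCR-ABL against vector, with 5 genes above 0 and 5 below, and −0.03 in BCR-ABL-Blk. In limma 0 of the 10 passed in either comparison, with 1 and 2 of them at an unadjusted p under 0.05, which 8.64% and 9.42% of all genes reached. The 1 in BCR-ABL was Cd28, a costimulatory receptor (−0.91, adjusted p = 0.332), and Cd8a joined it in BCR-ABL-Blk; Cd28 is named after its values were seen. The name T cell receptor signalling therefore stands for what most of these genes do in T cells, not for the cells sorted. It does not describe Themis2, the relative of THEMIS that acts in B cells and macrophages. Signal over background was not measured, so whether the low readings are expression is unknown. In sorted bulk RNA, fewer cells of a type and less RNA per cell cannot be told apart.

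Markers of other blood lineages also differed between the groups. Of 13 genes of mast cells and basophils, 11 lay above 0 in BCR-ABL against vector (median 0.80) and Gzmb, a granule protease, rose by 3.25 (adjusted p = 0.0187 in limma). Their mean log2 value was 7.98 with vector on both arrays, 8.94 and 9.06 with BCR-ABL, and 9.12 and 8.16 with BCR-ABL-Blk. On BCR-ABL-Blk replicate 2 this mean was near that of vector, but its genes were split. Gzmb read 9.19 there against 7.22 on both vector arrays, while Hdc read 8.58 against 9.005 and 9.95. Prkcq read 9.29 and Lat 10.45 on that array, and a link with these markers was not tested. All 10 measured megakaryocyte and platelet genes lay above 0 (median 0.45), with 0 called, and their mean was 7.66 and 7.34 on vector against 8.02 and 7.98 on BCR-ABL arrays. On the BCR-ABL-Blk arrays that mean was 7.86 and 7.98.

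Lists of the lineages in which Themis2 is known read lower with BCR-ABL. All 13 monocyte and macrophage genes lay below 0 in BCR-ABL against vector (median −0.89), and 1 of them, Cybb, a subunit of the phagocyte oxidase, fell by 1.23 (adjusted p = 0.0483 in limma). Their mean was 9.58 and 9.71 with vector, 8.42 and 8.79 with BCR-ABL, and 8.397 and 8.63 with BCR-ABL-Blk. Of 15 B cell genes 12 lay below 0 (median −1.74) with 0 called, and their mean was 9.88 on vector replicate 1 but 8.54 on replicate 2. Themis2 read 9.17 and 9.26 on those arrays. Of 13 genes listed for cells of the LSK gate 12 lay above 0 (median 0.47) and 1, Kit, below (−0.39, not passed). The 1 called among them was Cd48 (0.47, adjusted p = 0.0493 in limma), which in that gate marks progenitors more than stem cells, and their means were 8.65 and 8.51 with vector, 9.10 and 9.17 with BCR-ABL, and 9.19 and 9.27 with BCR-ABL-Blk. Of 11 NK cell genes 8 lay below 0 and 3 above (median −0.17). Klrd1 fell by 1.29 (adjusted p = 0.0187 in limma) from a low mean of 6.92 with vector. Cd244a of that list went the other way, by 0.73 (adjusted p = 0.285 in limma). Medians of the dendritic cell, neutrophil and erythroid lists were −0.43, −0.35 and −0.27, with 0 called in each. The part of these cell types in the values of the 9 genes was not tested.

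The rest of the pathway was followed through 7 lists that hold 89 genes, of which 82 were measured with a symbol of their own and 7 are not named here. In BCR-ABL against vector 1 of the 82 rose, Prkcq, and 0 fell; 49 lay above 0 and 33 below, with a median of 0.03. At an unadjusted p under 0.05 were 16 of the 82 (19.5%), against 8.64% of all genes. In BCR-ABL-Blk against vector Prkcq again was the gene that rose and 0 fell, with a median of 0.02. There 13 of the 82 (15.9%) had an unadjusted p under 0.05, against 9.42% of all genes. Between BCR-ABL-Blk and BCR-ABL, limma called 0 of the 82, with 1 at an unadjusted p under 0.05 (1.22%, against 3.96% of all genes). The lists include the 9 members and were chosen with earlier results known.

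Around the receptor, 0 of 5 receptor and CD3 chains passed in any comparison, with medians of 0.05 for BCR-ABL and −0.06 for BCR-ABL-Blk. Of 11 coreceptor and surface genes 0 passed, and Thy1 and Cd8a had the smallest p over the 3 comparisons. In BCR-ABL against vector alone, Cd28, Ctla4 and Icos had a smaller p than Cd8a. Cd28 had the difference given above, Ctla4 0.24 and Icos −0.30. Of 11 proximal kinases and phosphatases 0 passed. Among these Fyn, the Src family kinase that with Lck starts receptor signalling in T cells, read 9.53 and 9.24 with vector, 10.05 and 10.15 with BCR-ABL, and 10.12 and 10.43 with BCR-ABL-Blk. Its arrays with BCR-ABL lay above both vector arrays, with differences of 0.71 (SE 0.16, adjusted p = 0.196) and 0.89 (SE 0.16, adjusted p = 0.101). Ubash3b, a phosphatase that restrains these kinases, differed from vector by 0.28 and 0.25 (adjusted p = 0.627 and 0.640).

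Of 20 adaptor genes 0 passed, 11 lay above 0 and 9 below in BCR-ABL, and the median was 0.02. Themis2 and Lat had the smallest p. Grap2 and Clnk are named here after their values were seen. Grap2 encodes GADS, the adaptor that tethers SLP-76 to LAT, and read 7.90 and 8.03 with vector, 6.89 and 7.17 with BCR-ABL, and 7.26 and 7.36 with BCR-ABL-Blk. It lay below vector where Lat lay above it, with differences of −0.94 (SE 0.13, adjusted p = 0.0583) and −0.65 (adjusted p = 0.138). Clnk, a relative of SLP-76 found in mast cells and cytokine-stimulated cells, differed by 1.23 (SE 0.25, adjusted p = 0.154) and 1.13 (adjusted p = 0.164).

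Downstream, Prkcq was the 1 of 8 genes of the protein kinase C-theta and NF-kB branch that rose, and the median of the list was 0.17 for BCR-ABL and 0.14 for BCR-ABL-Blk. Of 18 genes of the phospholipase C-gamma, calcium and Ras branch 0 passed, 9 lay above 0 and 9 below, and the median was 0.01. Rasgrp2, a Ras family exchange factor of platelets and lymphocytes, differed by −0.66 (SE 0.15, adjusted p = 0.197) and −0.34 (adjusted p = 0.547), and Nfatc1, a calcium-dependent transcription factor, by −0.32 (adjusted p = 0.636) and 0.02 (adjusted p = 0.988). Of 9 T lineage factors 0 passed, 3 lay above 0 and 6 below in BCR-ABL, and the median was −0.11. In 5 of the 9 both BCR-ABL arrays lay below both vector arrays, and in 1 both lay above. Groups that did not overlap, in either direction, were seen for 37.0% of all genes. In BCR-ABL-Blk against vector, 4 of the 9 lay below and 2 above in this way (37.2% of all genes did not overlap). Tox, a factor of T cell development, read 8.67 and 8.12 with vector, 9.60 and 9.57 with BCR-ABL, and 9.73 and 9.79 with BCR-ABL-Blk, which gave 1.19 (SE 0.19, adjusted p = 0.0841) and 1.36 (SE 0.19, adjusted p = 0.0604). Id2, an inhibitor of E proteins, differed by −0.44 (adjusted p = 0.490) and −0.76 (adjusted p = 0.156).

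**Figure D4:**
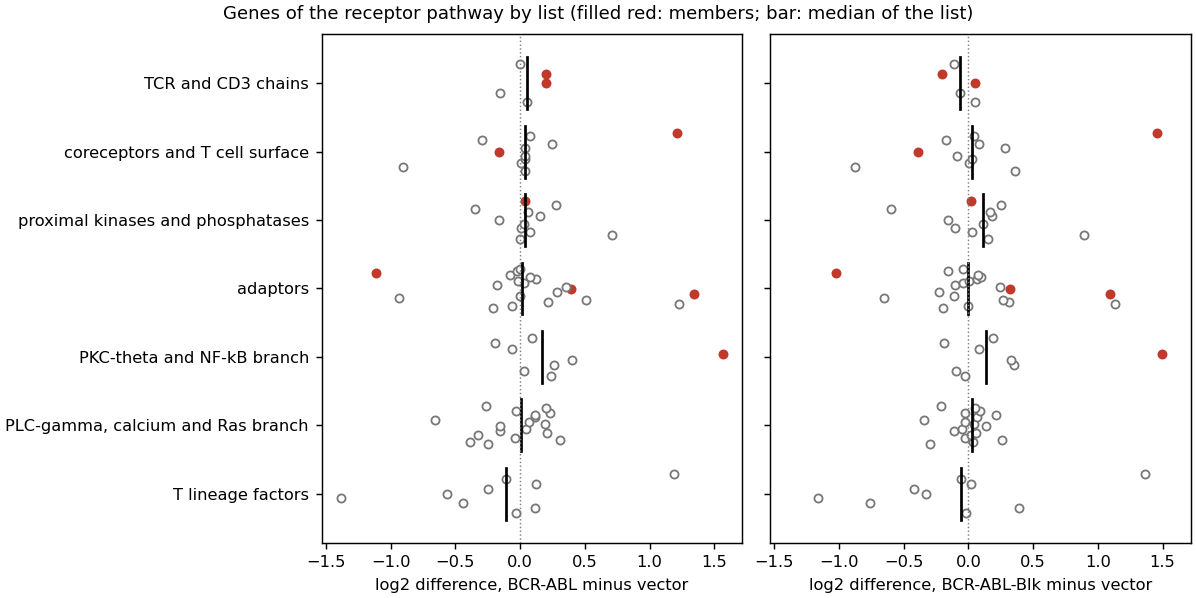
Log2 difference from vector (x axis) of every measured gene in 7 pathway lists (rows), for BCR-ABL on the left and BCR-ABL-Blk on the right; red points are the 9 members, open points other genes and bars list medians. The medians lie between −0.11 and 0.17 in BCR-ABL, and a few single genes lie past 1 in either direction.

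The genes most like Prkcq and Themis2 were sought among 728 genes with a mean above the median and a range of at least 1 log2 unit over the 6 arrays. Prkcq went closest with Akr1c12 (Pearson r = 0.998), Akr1c13 (r = 0.997) and Podxl (r = 0.992). Akr1c12 and Akr1c13 are nearly identical aldo-keto reductase genes whose signals may mix, and Podxl encodes the surface mucin podocalyxin. Podxl read 7.17 and 7.02 with vector, 8.69 and 9.08 with BCR-ABL, and 8.93 and 8.74 with BCR-ABL-Blk. Themis2 went closest with Cox6a2 (r = 0.990), H2-Ab1 (r = 0.986), an MHC class II chain, and Slc46a3 (r = 0.972). These correlations describe the same 6 arrays, and share the contrast between vector and the other groups.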

How the data were processed

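Biotin-labelled RNA of 6 samples was hybridised to Affymetrix whole-transcript arrays, 1 per sample. The authors deposited log2 values for 35557 probe sets, made with Affymetrix Expression Console 1.1 and RMA per the submitters' processing notes. The sources used here do not give the options or the genome build. The medians of the deposited log2 values ran from 7.01 to 7.52 between arrays, so the arrays were quantile normalized. The platform annotation, which can be old, gave 21789 probe sets 1 symbol and 1621 several; only the former were named, 1 per gene by highest mean, which left 19938 genes. All 9 members matched RefSeq by Entrez ID.

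Groups were compared with limma 3.58.1 in R 4.3.3 (lmFit, eBayes with an intensity trend, no block) over the 6 arrays of 3 groups, with 3 residual and 4.40 prior degrees of freedom. Tests are two-sided, and intervals cover 95%. The fit was checked on simulated data. No filter on level was applied, and the number of arrays limits the precision: the median standard error of a difference was 0.129.

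The members, lists and tests were chosen with earlier results of these data known. All 9 members were named. From each pathway list the genes that passed were named, or else the 2 with the smallest p. For the members with the largest rise and fall in BCR-ABL against vector, the 3 genes of highest correlation were named, without predicted genes, clones and small RNAs. Alternatives were the scaling, the variance model, array weights, a filter, the averaging of probe sets, the arrays in the fit, leaving out each array, and a replicate block. Same-numbered samples were not treated as pairs.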

Additional observations from a re-analysis of the deposited data

How the results depend on the processing

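Of the alternative values of single members, 348 kept their direction and side of the threshold, 24 newly passed, 7 no longer passed and 14 changed sign. The count of members called in BCR-ABL against vector was 1, with 29 of all genes called, and 4 with the deposited values. It was 2 with cyclic loess (37 of all genes), without the intensity trend (15) and with array weights (28). It was 3 with the filter on low values (53) and with probe sets averaged (37). With an array left out, which leaves 1 array in its group, it was higher for some arrays and lower for others. In BCR-ABL-Blk against vector it was 1 (28 of all genes), 4 with the deposited values and 3 with the filter (71). It was 0 with only the 4 arrays compared (4 of all genes), and again moved both ways with an array left out. The filter leaves 9969 of 19938 genes to test; for the other settings the cause was not tested. Without vector replicate 1, where 3 and 4 members passed, 502 and 558 genes were called. Between BCR-ABL-Blk and BCR-ABL the count was 0 under every alternative run. The deposited values shift the median gene by −0.11, 0.15 and 0.26 in BCR-ABL against vector, BCR-ABL-Blk against vector and BCR-ABL-Blk against BCR-ABL, and their adjusted p values rest on a prior with unlimited degrees of freedom. They called 401, 732 and 79 genes, against 29, 28 and 0.

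Signs turned only for differences that did not pass. With the deposited values, BCR-ABL-Blk against BCR-ABL gave 0.16 for Cd3e, 0.065 for Cd8a, 0.14 for Lcp2, 0.17 for Prkcq and 0.28 for Zap70, and BCR-ABL against vector gave −0.12 for Zap70. With an array left out, BCR-ABL against vector ranged from −0.128 to 0.53 for Cd3g and from −0.02 to 0.087 for Zap70. BCR-ABL-Blk against BCR-ABL ranged from −0.025 to 0.198 for Themis2, from −0.098 to 0.587 for Thy1 and from −0.083 to 0.061 for Zap70, and BCR-ABL-Blk against vector from −0.049 to 0.095 for Zap70. A lone array left in a group is assumed to vary like the other groups.

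With the replicate number as a block, the counts of members called were 1, 1 and 0 in the same order, and 29, 23 and 0 genes were called; it changed no call of a member. Deviations of same-numbered samples correlated at −0.06, 0.08 and 0.03 across genes, so no sign of pairing by number was seen. These correlations cannot show whether same-numbered samples were prepared together. Signal over background was not measured, and with 2 arrays per group small differences are beyond reach.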
